A study of Mus musculus with 120 samples.

Results

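The genes described here are the MHC class II presentation genes H2-Aa, H2-Ab1, H2-Eb1, H2-Eb2, H2-Oa, H2-Ob, H2-DMa, H2-DMb1, Cd74 and Ciita. They were taken by symbol from the gene count tables, and all 10 were found among the 55487 genes that both tables list. Porous polymer scaffolds under the skin of young mice become vascularised and filled with host cells, and this immunological niche can be biopsied again and again in 1 animal. The study followed such niches in NOD/ShiLtJ mice, a strain that develops autoimmune diabetes, and in NOR/LtJ mice, a related strain that stays free of it and carries the same MHC haplotype (H2g7) as NOD. RNA of 120 biopsies was sequenced: 58 from 10 NOD mice that became hyperglycemic (progressors), 39 from NOD mice that did not (nonprogressors) and 23 from 5 NOR mice.

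NOR biopsies and 33 nonprogressor biopsies were labelled by age (6, 10, 14, 18 or 22 weeks), the latter from 11 mice. Progressor biopsies were labelled by 6 weeks of age, by 7, 5, 3 or 1 weeks before onset of hyperglycemia, or by onset, so their ages after 6 weeks are not in the labels. The other 6 nonprogressor biopsies were labelled by 31, 38 or 108 days after implantation and entered no test. No group is labelled with a drug or an engineered allele, and all groups carried the implant. Libraries were made in 2 sequencing batches, with every NOR biopsy in batch 1 and every biopsy of 7 weeks before onset in batch 2. Progressors 1 to 4 are in both batches, since only their biopsies of 7 weeks before onset are in batch 2.

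Total counts ran from 4722396 to 56185434 in the 74 libraries of batch 1 and from 29029239 to 43880986 in the 46 libraries of batch 2. In the 18-week library of NOR mouse 5, a single ribosomal RNA gene took 85.7% of the counts and only 299 counts fell on Cd74, so its values rest on few reads. The nonprogressor libraries of 22 weeks of age carried up to 30.5% of their counts on the 7SL gene Rn7s2. Most tests that included these libraries were repeated without them; the comparison of the age changes of nonprogressors and NOR was not repeated without the 22-week libraries. The niche has no marker of its own. Levels are given in CPM, counts scaled to the size of the library. The summed level of 9 macrophage markers lay between 1875 and 4133 CPM in the age- and onset-labelled libraries. Those of 7 weeks before onset were left out of this sum. Macrophage RNA was thus present, beside fibroblast RNA. The median was 983 CPM for the macrophage gene Cd68. Of the fibroblast markers, the collagen genes Col1a1 (10804 CPM) and Col3a1 (9079) lay above it, and Dcn (401), Pdgfra (176) and Lum (170) below it. In such bulk RNA, fewer cells of a type and less RNA per cell cannot be told apart.

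MHC class II molecules are pairs of an alpha and a beta chain that show peptides from taken-up proteins to CD4+ T cells. Dendritic cells, macrophages and B cells carry them, the invariant chain guides them to the endosome and fills their groove, and a peptide editor then exchanges its remnant for other peptides. Transcription of the class II chain genes depends largely on CIITA, a coactivator. It joins a protein complex on the conserved X and Y boxes of class II promoters, and interferon gamma is its best known inducer. The class II region is also the strongest genetic determinant of diabetes risk in NOD mice, whose haplotype encodes an unusual I-A molecule and no I-E molecule, because the alpha chain gene H2-Ea is not transcribed.

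In the GRCm38 annotation, 8 of the genes lie on chromosome 17 between H2-Oa at chr17:34092340-34095234 and H2-Eb2 at chr17:34325665-34341412, all on the forward strand except H2-Aa. H2-Ab1 (ENSMUSG00000073421, chr17:34257689-34269419) and H2-Aa (ENSMUSG00000036594, chr17:34282744-34287823) encode the beta and alpha chain of I-A. H2-Eb1 (ENSMUSG00000060586, chr17:34305867-34316674) encodes the beta chain of I-E, and H2-Eb2 (ENSMUSG00000067341) a further beta chain. H2-DMa (ENSMUSG00000037649, chr17:34119541-34139101) and H2-DMb1 (ENSMUSG00000079547, chr17:34153072-34160230) encode the chains of the peptide editor DM. H2-Oa (ENSMUSG00000024334) and H2-Ob (ENSMUSG00000041538, chr17:34238903-34254414) encode those of DO, which modulates DM. Ciita (ENSMUSG00000022504, chr16:10480059-10528418) encodes the coactivator and lies on chromosome 16. Cd74 (ENSMUSG00000024610) lies outside the region and encodes the invariant chain.

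Promoters are shown because these genes share letters just before their start. RefSeq windows of 300 bases (GRCm38.p6, 250 before to 50 after the start) were at hand for 7 of the 10 genes, 8 windows in all. A search on both strands for GNAAC followed 20 to 36 bases later by GATTGG, letters chosen after these promoters had been read, found the pair in 6 of the 8 windows (75.0%) and in 318 of all 32851 windows (0.968%). GATTGG alone was in 7 of the 8 (87.5%) and in 16.1% of all windows. The stretches of 4 genes follow, each 5′ to 3′ on the gene's own strand, with the capitals marking the letters searched for.
H2-Aa, chr17:34287863-34287912, reverse strand: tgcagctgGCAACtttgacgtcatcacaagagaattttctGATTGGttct
H2-Eb1, chr17:34305768-34305816, forward strand: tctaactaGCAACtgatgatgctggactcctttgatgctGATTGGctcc
H2-Eb2, chr17:34325535-34325583, forward strand: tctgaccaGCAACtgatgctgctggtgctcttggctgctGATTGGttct
H2-Ob, chr17:34238810-34238856, forward strand: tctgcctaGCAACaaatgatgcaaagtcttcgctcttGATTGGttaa

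The spacing between the capitals was 24 bases for H2-Ob, 26 for H2-Eb1 and H2-Eb2 and 27 for H2-Aa. H2-Eb1 and H2-Eb2 have the same spacing and much the same letters, yet their RNA levels were far apart. The match is a description of letters, not of binding.

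The genes fell into a high and a low set. Per kilobase of exon, the median level over 120 libraries was 244 CPM for Cd74, 47.4 for H2-Eb1, 27.1 for H2-Ab1 and 19.2 for H2-Aa. The editor chains followed at 6.58 CPM per kilobase for H2-DMa and 6.34 for H2-DMb1, and Ciita at 2.01. H2-Oa (0.187), H2-Ob (0.121) and H2-Eb2 (0.114) were lowest, with median raw counts of 8, 21 and 13 in a library. Compared with their spread within a group and time, the levels of H2-Oa, H2-Ob and H2-Eb2 are neighbours that cannot be ordered, as are those of H2-DMa and H2-DMb1. H2-Ea was listed at 0 in 65 libraries and reached at most 1.22 CPM, so these NOD and NOR libraries held almost no transcript for the I-E alpha chain beside ample H2-Eb1. H2-DMb1 and its neighbour H2-DMb2 are near-identical copies, so how reads were split between them is uncertain. H2-DMa, H2-Oa, H2-Eb1, Cd74 and Ciita each overlap another annotated gene, and whether counting used strand is not stated.

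How the genes differed between the strains was asked in batch 1, with the biopsies of a mouse summed into 1 library. These sums hold unlike times: NOR mouse 3 has no 6-week biopsy and NOR mouse 2 none of 18 weeks. Progressor biopsies after 6 weeks were labelled by onset, not by age. All 10 genes had lower estimates in NOD than in NOR, and H2-Aa, H2-Ab1, H2-Eb1, Cd74 and Ciita passed the test at an adjusted p under 0.05. In the 5 NOR mice, Cd74 stood at 600, 513, 632, 581 and 585 CPM (mean 582 ± 43.8, SD, n = 5). In the 4 nonprogressors it stood at 401, 347, 415 and 342 CPM (mean 376 ± 37.0, SD, n = 4). In the 5 progressors it stood at 629, 358, 396, 415 and 605 CPM (mean 480 ± 127, SD, n = 5). All nonprogressors thus lay below all NOR mice, while progressors 1 and 5 lay among the NOR mice and the other 3 below them.

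The I-A genes repeated this split between mice. H2-Ab1 ranged from 90.1 to 107 CPM in NOR, from 57.3 to 73.8 in nonprogressors and from 63.4 to 114 in progressors. The estimated log2 difference (NOD minus NOR) was -0.46 ± 0.13 (SE, adjusted p = 0.0358, edgeR) for H2-Ab1, -0.47 ± 0.12 (adjusted p = 0.0229) for H2-Aa and -0.49 ± 0.13 (adjusted p = 0.0279) for H2-Eb1. It was -0.46 ± 0.13 (adjusted p = 0.0368) for Cd74 and -0.34 ± 0.09 (adjusted p = 0.0345) for Ciita. So 5 of 10 genes were called, all lower in NOD, beside 9.21% of the 23727 genes tested (5.27% lower and 3.94% higher). The median over the 10 was -0.35, beside -0.00347 over all genes. H2-DMa in single NOR libraries ran from 17.6 to 51.4 CPM, leaving out the 18-week one of mouse 5. Single age-labelled nonprogressor libraries of batch 1 ran from 14.6 to 30.2 CPM. In the sums per mouse, H2-DMa had little spread in NOR. It ran from 26.4 to 27.1 CPM there, from 20.6 to 23.2 in nonprogressors and from 20.5 to 28.7 in progressors. H2-DMb1 ran from 12.6 to 14.5 CPM in NOR, from 10.1 to 11.8 in nonprogressors and from 9.76 to 15.3 in progressors. Ciita averaged 23.5 ± 3.11 CPM (SD, n = 5) in NOR, 17.7 ± 1.73 CPM (SD, n = 4) in nonprogressors and 19.7 ± 2.26 CPM (SD, n = 5) in progressors, and both NOD groups overlapped the lowest NOR mouse at 18.3 CPM. H2-DMa at -0.20 ± 0.06 (adjusted p = 0.0777) and H2-DMb1 at -0.20 ± 0.09 (adjusted p = 0.207) did not pass, nor did H2-Oa, H2-Ob and H2-Eb2, whose estimates lay between -0.36 and -0.18.

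**Figure D1:**
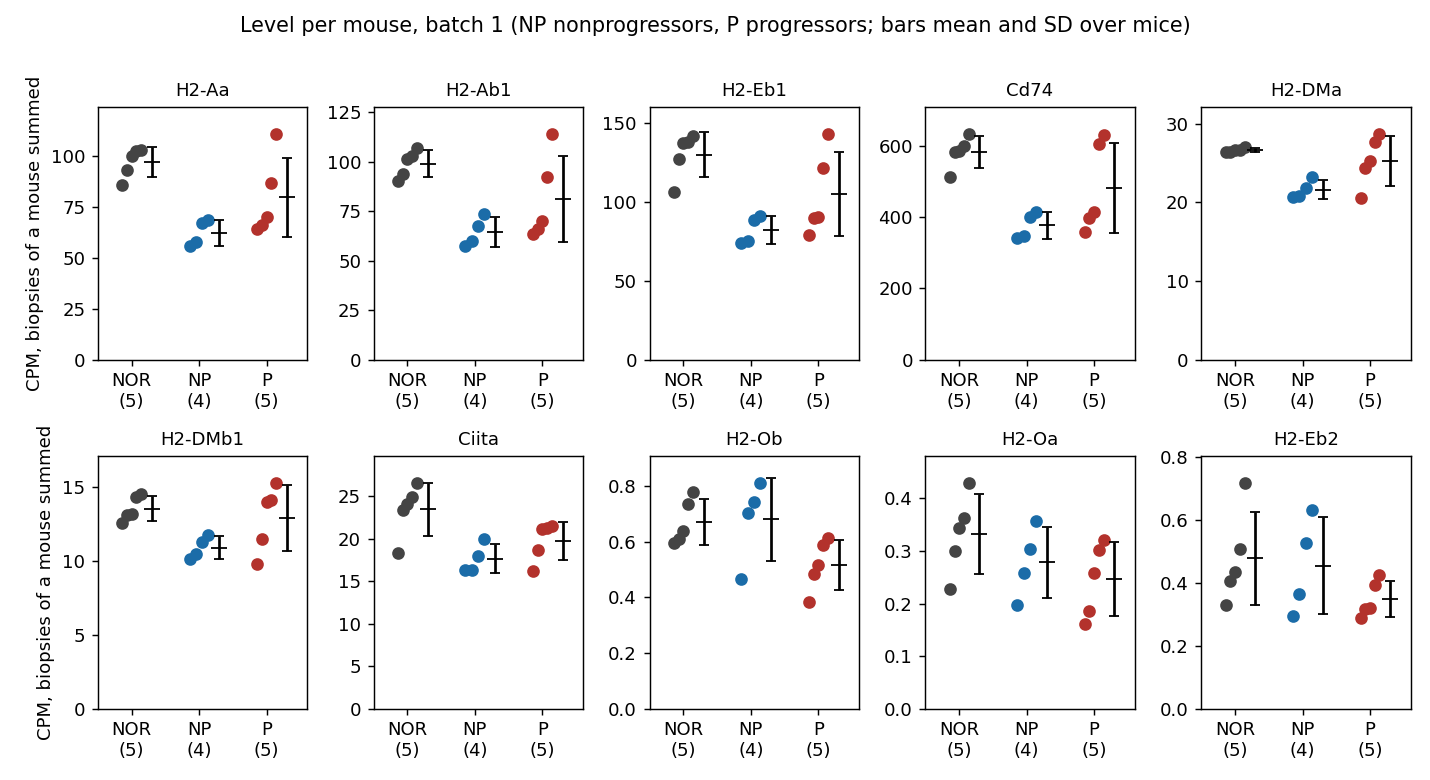
Level in CPM of each gene per mouse in batch 1, all age- or onset-labelled biopsies of a mouse summed, for NOR (5 mice), nonprogressors (NP, 4) and progressors (P, 5). Points are mice, horizontal marks and bars the mean and SD over mice, and each axis starts at 0. For H2-Aa, H2-Ab1, H2-Eb1 and Cd74 the nonprogressors lie below every NOR mouse, and some progressors overlap NOR.

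The strain call was fragile. It was lost for all 5 genes when each biopsy was taken separately and at 6 weeks of age alone (0 of 10 called, 10 of 10 estimates still below 0 in both), and also without NOR mouse 1, 3 or 4. Without NOR mouse 5 or nonprogressor 2, 1 gene was called, without nonprogressor 4 or progressor 3, 2 genes, and without nonprogressor 1 or progressor 4, 3 genes. Against nonprogressors alone, 6 genes were called lower: H2-Aa, H2-Ab1, H2-Eb1, Cd74, H2-DMa and H2-DMb1, the Cd74 difference being -0.64 ± 0.08 (SE, adjusted p = 0.00137, edgeR, the lowest of 22 alternatives, which reached 0.782). Without the 18-week library of NOR mouse 5, and without the 22-week nonprogressor libraries, 5 genes were called. At 6 weeks of age alone, the Cd74 difference was -0.22 ± 0.26 (SE).

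Of the 9 macrophage markers, 5 were also lower in NOD in this test (0 higher, list median -0.26), beside 5.27% of all genes. They were the complement genes C1qb (-0.89 ± 0.10), C1qc (-0.54 ± 0.11) and C1qa (-0.50 ± 0.11), the efferocytosis receptor Mertk (-0.36 ± 0.08) and the CSF1 receptor Csf1r (-0.26 ± 0.06). None of the 8 conventional dendritic cell and 8 B cell markers passed. Of the 7 T cell markers only Cd4 passed, lower in NOD (-1.13 ± 0.29, adjusted p = 0.0249). The T cell list median was -0.16, and Lck stood at 0.10 ± 0.16. Of 4 epidermal keratins, Krt1 was higher in NOD (5.67 ± 1.43, adjusted p = 0.0240), and the list median was 3.95. The summed macrophage level of single NOR libraries after 6 weeks ran from 2169 to 4089 CPM, and of nonprogressors in batch 1 from 1875 to 3345 CPM. The part of these cells in the class II difference was not tested.

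The next question was whether class II genes move as the mouse ages. The study replaced each removed scaffold with a new one. How long a scaffold had been in place is not in the labels of the age- and onset-labelled biopsies. In every group, a change after 6 weeks thus cannot be told apart from one with time in place. In nonprogressors, H2-Ab1, H2-Eb1, Cd74, H2-DMa, H2-DMb1 and Ciita rose from 6 weeks to the later ages: 6 of 10 genes were called, all higher, beside 24.1% of 21138 genes (9.88% higher and 14.2% lower). The median over the 10 was 0.47, beside -0.03 over all genes. In batch 1, Cd74 ran from 180 to 331 CPM with a median of 292 in 4 biopsies of 6 weeks, and from 198 to 609 CPM with a median of 406 in 16 later ones. In batch 2, Cd74 ran from 150 to 342 CPM with a median of 202 in 7 biopsies of 6 weeks, and from 276 to 696 CPM with a median of 368 in 6 of 14 weeks. The ages overlapped in both batches, but within the 10 mice with both, the mean of the later biopsies was above that of 6 weeks in 10 of 10 for Cd74.

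The beta chain of I-A moved likewise. H2-Ab1 in batch 1 ran from 36.7 to 57.5 CPM (median 53.9) at 6 weeks and from 36.1 to 109 CPM (median 72.4) later, and in batch 2 from 29.9 to 64.0 CPM (median 42.0) and from 49.4 to 122 CPM (median 65.1). Ciita in batch 2 ran from 6.82 to 14.6 CPM (median 10.8) at 6 weeks and from 11.3 to 28.8 CPM (median 18.1) at 14 weeks. For both genes no biopsy of 6 weeks reached the later median of its batch. H2-Ob in batch 1 ran from 0.427 to 0.760 CPM (median 0.593) at 6 weeks and from 0.194 to 1.71 CPM (median 0.675) later, so its later values spread to both sides. The biopsies of a mouse are repeated samples of 1 animal, so the p-values here measure the spread between biopsies.

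Cd74 gave the largest estimate among the called genes, 0.67 ± 0.18 on the log2 scale (SE, adjusted p = 0.00901, edgeR). H2-Ab1 rose by 0.53 ± 0.18 (adjusted p = 0.0290), with higher later means in 10 of 10 mice, and H2-Eb1 by 0.53 ± 0.18 (adjusted p = 0.0366), also in 10 of 10. Of the DM chains, H2-DMb1 rose by 0.41 ± 0.15 (adjusted p = 0.0408) in 10 of 10 mice and H2-DMa by 0.32 ± 0.12 (adjusted p = 0.0415) in 9 of 10. Ciita rose by 0.45 ± 0.17 (adjusted p = 0.0491) in 9 of 10. H2-Aa, at 0.49 ± 0.18 (adjusted p = 0.0518), just missed the threshold. The low genes H2-Oa (0.64 ± 0.33), H2-Ob (0.36 ± 0.28) and H2-Eb2 (-0.22 ± 0.30) did not pass, and later H2-Eb2 means were higher in only 3 of 10 mice.

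The course over single ages was not steady, and 18 weeks rather than 22 had the highest Cd74 median. Nonprogressor Cd74 in batch 1 had medians of 292, 313, 466, 551 and 382 CPM at 6, 10, 14, 18 and 22 weeks, with 4 biopsies each. Batch 1 alone called only H2-DMa and H2-DMb1, while batch 2 alone called the other 4 of the 6 and H2-Aa, with Cd74 at 0.99 ± 0.21 (adjusted p = 0.00278, edgeR, in a range of 0.000462 to 0.116 over 12 alternatives). With no filter on low counts 3 genes were called, and without nonprogressor 1, 2, 3 or 4 there were 1, 2, 2 or 5. With the mouse as a block the same 6 genes were called. Without the 22-week libraries 6 were called too, but Ciita was lost (adjusted p = 0.0643, edgeR) and H2-Aa gained (adjusted p = 0.0281).

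**Figure D2:**
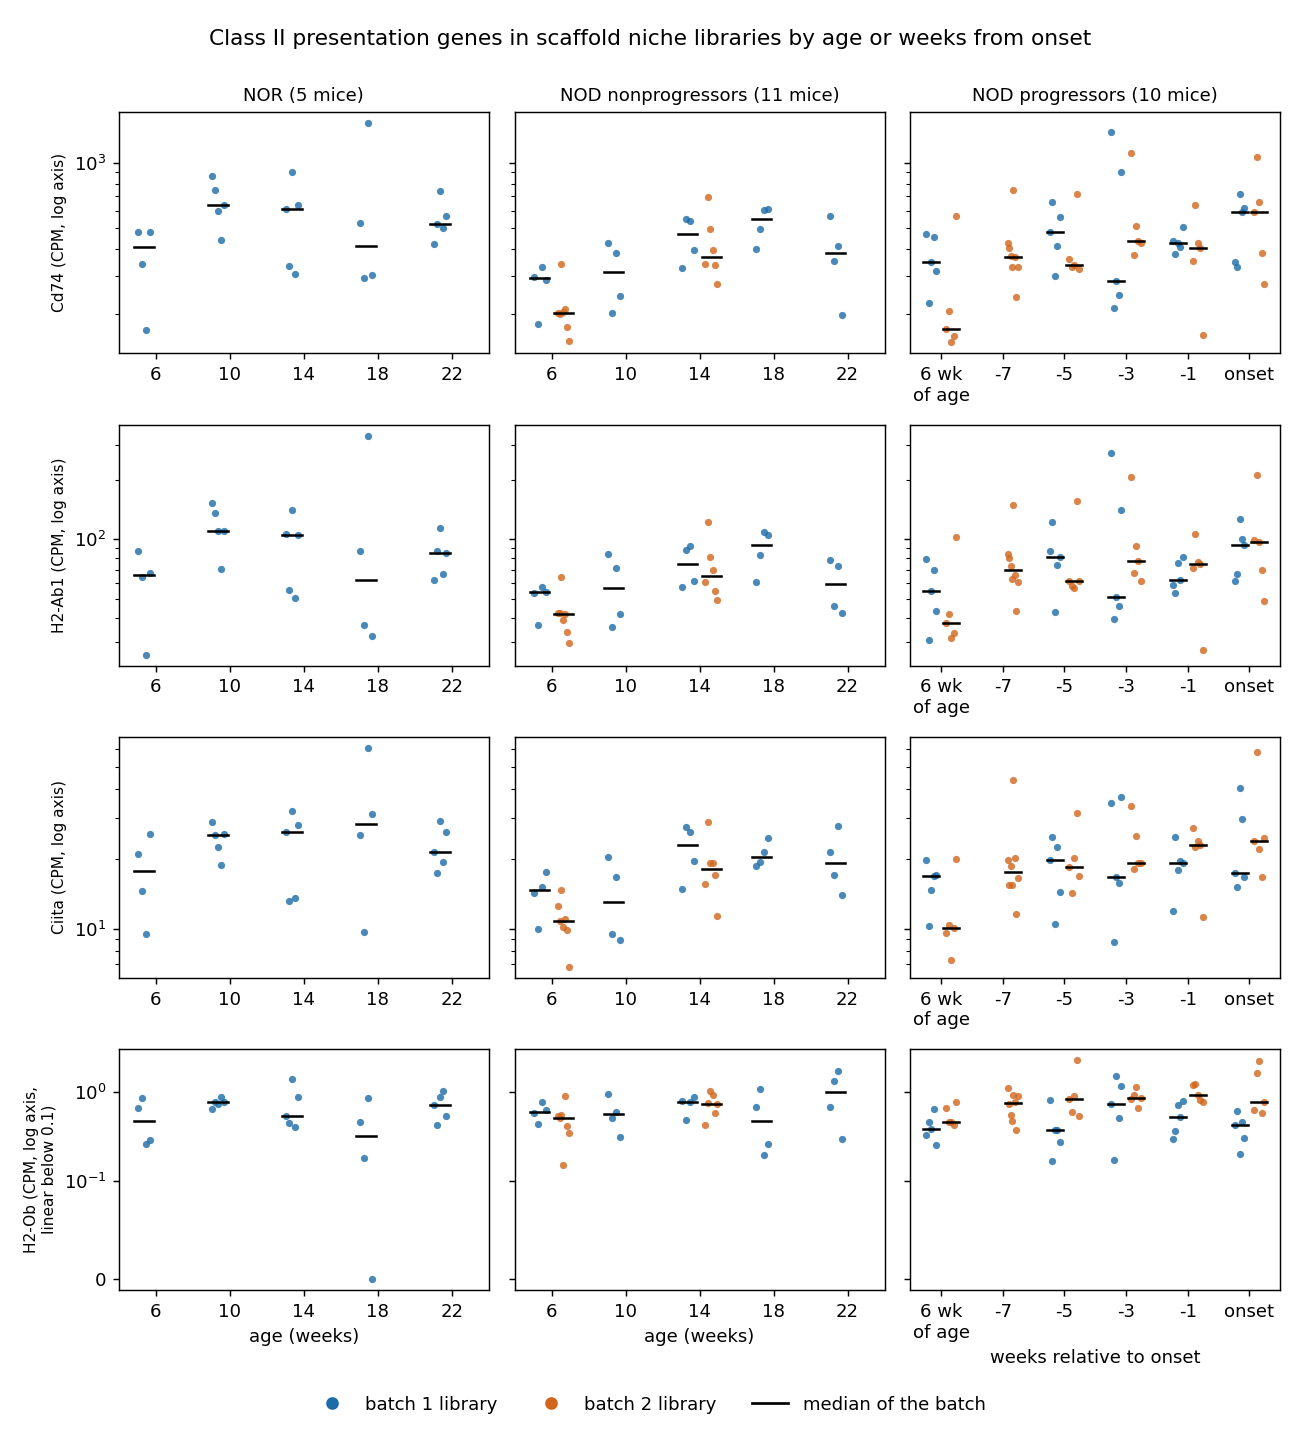
CPM on a log axis of Cd74, H2-Ab1, Ciita and H2-Ob (linear below 0.1 CPM) in single libraries, by age in NOR and nonprogressors and by weeks from onset in progressors (negative numbers are weeks before onset). Points are libraries, colours the sequencing batch and bars the median of a batch. In batch 2, Cd74 medians lie at 202 CPM in nonprogressors and 171 CPM in progressors at 6 weeks, below those of every later time, and single libraries above 1000 CPM appear in NOR at 18 weeks and in progressors at 3 weeks before onset and at onset.

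In progressors the same question was put to the biopsies of the last 5 weeks. H2-Aa, H2-Ab1, H2-Eb1, Cd74, H2-DMa, H2-DMb1 and Ciita rose from 6 weeks of age to the mean of 5, 3 and 1 weeks before onset and onset. So 7 of 10 genes were called, all higher, beside 39.5% of 21279 genes (19.6% higher and 19.9% lower), and the median over the 10 was 0.65 beside 0.01 over all genes. Cd74 in batch 1 ran from 225 to 466 CPM with a median of 347 in 5 biopsies of 6 weeks, and from 214 to 1380 CPM with a median of 430 in 20 later ones. In batch 2 it ran from 148 to 569 CPM with a median of 171 in 5 biopsies of 6 weeks, and from 161 to 1101 CPM with a median of 415 in 20 later ones. Later biopsies were thus spread over and above the range of 6 weeks, with wide overlap.

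The other genes showed the same spread. H2-Eb1 in batch 2 ran from 33.8 to 146 CPM (median 40.2) at 6 weeks and from 41.7 to 279 CPM (median 101) later, and in batch 1 from 40.2 to 102 CPM (median 64.9) and from 43.6 to 344 CPM (median 96.0). Ciita in batch 2 ran from 7.29 to 19.9 CPM (median 10.0) and from 11.2 to 58.2 CPM (median 22.3). In batch 1 the ranges were from 10.2 to 19.8 CPM and from 8.75 to 40.5 CPM, with less of a shift. H2-DMb1 in batch 1 ran from 5.25 to 11.3 CPM (median 8.16) and from 9.25 to 31.4 CPM (median 11.8). H2-Ob had medians of 0.459 and 0.836 CPM in batch 2 and of 0.383 and 0.437 CPM in batch 1.

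H2-Eb1 rose by 0.80 ± 0.25 (SE, adjusted p = 0.00799, edgeR), H2-Aa by 0.73 ± 0.24 (adjusted p = 0.0132), H2-Ab1 by 0.72 ± 0.24 (adjusted p = 0.0153) and Cd74 by 0.70 ± 0.23 (adjusted p = 0.0141). Later means were higher in 9 of 10 mice for H2-Eb1, H2-Aa and H2-Ab1 and in 8 of 10 for Cd74. Progressor 9 went the other way in each of these, with Cd74 at 569 CPM at 6 weeks and a mean of 296 CPM from 5 weeks before onset to onset. Ciita, the coactivator, rose by 0.69 ± 0.20 (adjusted p = 0.00510), H2-DMb1 by 0.59 ± 0.16 (adjusted p = 0.00315) and H2-DMa by 0.35 ± 0.13 (adjusted p = 0.0342). H2-Ob, at 0.60 ± 0.25 (adjusted p = 0.0528), did not pass, and neither did H2-Eb2 (0.27 ± 0.28) and H2-Oa (0.28 ± 0.29). Batch 1 alone called H2-DMb1 only, and batch 2 alone called Cd74, Ciita, H2-Eb1 and H2-Ob. Each progressor left out in turn gave 5 (without progressor 10) to 8 (without progressor 4) called genes, and the mouse as a block 7.

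**Figure D3:**
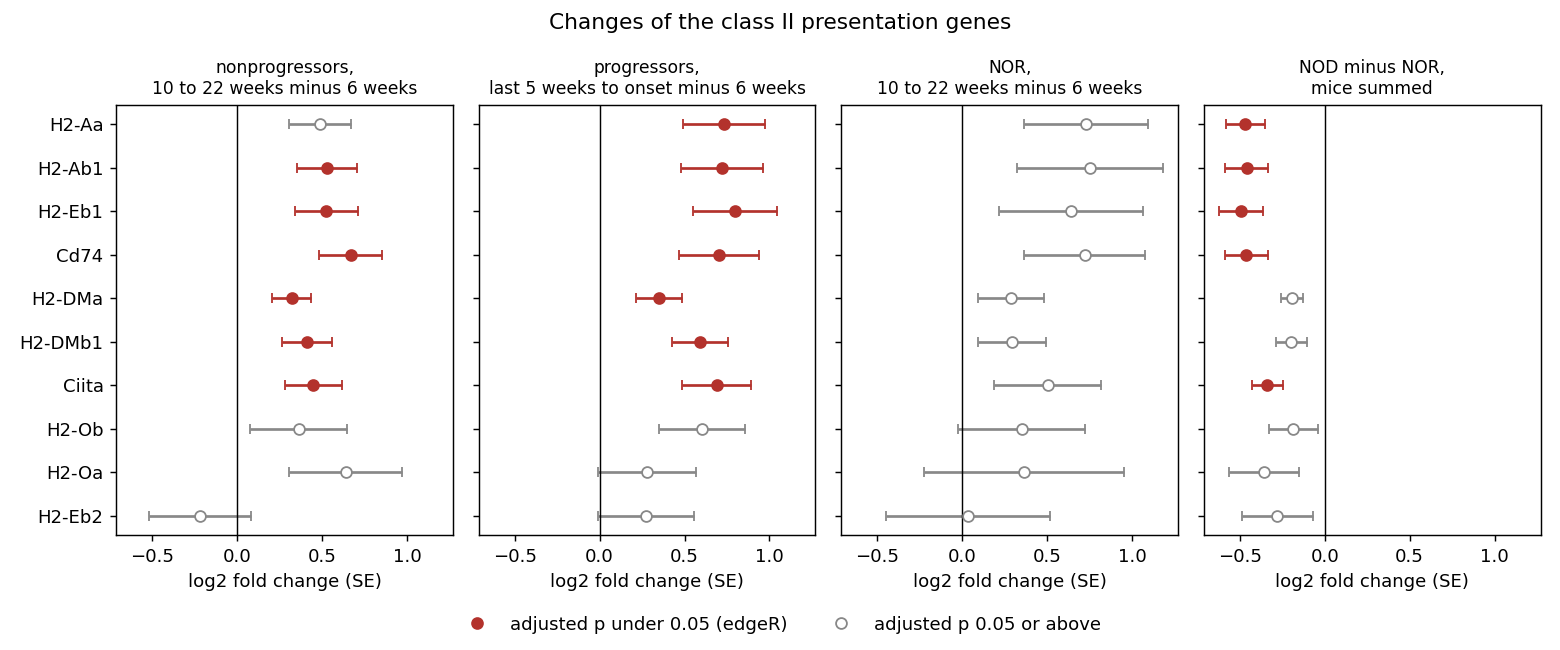
Estimated log2 fold change of each gene, with its SE as bars, in the age comparison of nonprogressors, the approach to onset in progressors, the age comparison of NOR and the strain comparison. Filled red points passed an adjusted p of 0.05 in edgeR. The estimates of NOR are as large as those of the NOD groups for H2-Aa, H2-Ab1 and Cd74, with wider bars.

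Whether the rise was already present 7 weeks before onset was examined in the same fit. Cd74 at that time ran from 239 to 751 CPM with a median of 368 in 8 biopsies, all in batch 2. The median at 6 weeks in that batch was 171, but in partly different mice (progressors 6 to 10). In progressors 6, 7, 9 and 10, Cd74 went from 208 to 367, 148 to 239, 569 to 329 and 171 to 427 CPM. Progressors 1 to 4 had their 6-week biopsies in batch 1. There it went from 466 to 403, 225 to 369, 347 to 330 and 453 to 751 CPM. Against 6 weeks, none of the 10 genes passed, beside 12.5% of all genes, and 9 estimates were above 0. Ciita came closest (0.55 ± 0.27, adjusted p = 0.185, edgeR), followed by H2-Aa (0.63 ± 0.32, adjusted p = 0.197). From 7 weeks before onset to the last 5 weeks none passed, beside 3.89% of all genes, the Cd74 estimate being 0.22 ± 0.26. With the mouse as a block none passed in either step, but the median over the 10 went from 0.44 to 0.22 in the first and from 0.21 to 0.42 in the second. From 5 weeks before onset onward none passed either, beside 0.385%, with Cd74 at 0.19 ± 0.23. At an unadjusted p under 0.05 the counts in these 3 steps were 1 (Ciita), 0 and 1 (H2-Eb2, -0.61 ± 0.27), and DESeq2 called 0 in each. With an SE of 0.23 to 0.31 for Cd74 in these 3 steps, a change of the size seen from 6 weeks was not reliably detectable.

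In the last weeks the medians had no steady course. In batch 2 the H2-Ab1 medians were 61.2, 77.7, 74.4 and 96.9 CPM at 5, 3 and 1 weeks before onset and at onset, and in batch 1 they were 81.5, 51.2, 61.8 and 93.4 CPM. Onset had the highest median in both batches. Single libraries exceeded their group: the highest H2-Ab1 value 3 weeks before onset was 272 CPM in batch 1 and 207 CPM in batch 2.

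NOR mice were asked the same, since they age without diabetes. None of the 10 genes passed the test over the 5 ages (edgeR, 0 at an unadjusted p under 0.05, 0 in DESeq2), beside 8.24% of 19628 genes. Cd74 ran from 169 to 480 CPM with a median of 410 in 4 biopsies of 6 weeks, and from 295 to 1519 CPM with a median of 565 in 19 later ones. Without the 18-week library of mouse 5 the later median was 583 CPM (n = 18). Ciita ran from 9.49 to 25.8 CPM (median 17.8) and from 9.68 to 60.5 CPM (median 25.4), and H2-Eb1 from 38.6 to 117 CPM (median 91.7) and from 29.3 to 386 CPM (median 115). The lowest later H2-Eb1 value was that of the mouse 5 library with few usable reads. In all 3 genes the later biopsies overlapped those of 6 weeks and reached above them. The later mean of Cd74 was higher in 4 of 4 mice with a 6-week biopsy, as it was for H2-Aa, H2-Ab1, H2-Eb1 and Ciita.

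The contrast used for nonprogressors, applied to NOR, gave 10 of 10 estimates above 0 and none past the threshold (edgeR, 0 at an unadjusted p under 0.05, 0 in DESeq2), beside 0.0357% of all genes. H2-Ab1 stood at 0.75 ± 0.43 (adjusted p = 0.812), H2-Aa at 0.73 ± 0.36 (adjusted p = 0.744) and Cd74 at 0.72 ± 0.36 (adjusted p = 0.742). NOR mouse 4 carried much of this: its Cd74 went from 169 CPM at 6 weeks, the lowest of the group, to 1519 CPM at 18 weeks, the highest of all 120 libraries. The median over the 10 genes was 0.43, and with each NOR mouse left out it ran from 0.20 (without mouse 4) to 0.72 (without mouse 1). The change with age was compared between nonprogressors and NOR directly in batch 1, and 0 of 10 genes differed (edgeR, 0 in DESeq2, 0 at an unadjusted p under 0.05), beside 0% of all genes. The Cd74 difference of changes was -0.09 ± 0.43, an SE that is large beside the nonprogressor estimate of 0.67. The median over the 10 was -0.07, and 0.17 with 10 of 10 above 0 without NOR mouse 4.

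Progressors were set against nonprogressors in 3 ways. At 6 weeks of age, 0 of 9 genes differed (H2-Oa was too low to test) beside 0% of 19082 genes, with 0 of 9 at an unadjusted p under 0.05 and 0 in DESeq2. Cd74 was 0.30 ± 0.22 higher in progressors (adjusted p = 0.904, edgeR) and 7 of 9 estimates were above 0. In batch 2 the progressor median (171 CPM) was below that of nonprogressors (202 CPM), and progressor 9 stood apart at 569 CPM. Later in batch 1, with biopsies of a mouse summed, Cd74 ran from 388 to 680 CPM in 5 progressors and from 430 to 501 CPM in 4 nonprogressors, so the groups overlapped. There 0 of 10 genes differed, beside 0% of 22206 genes, and 0 did in DESeq2, while H2-Oa alone was under an unadjusted p of 0.05 (-0.57 ± 0.25, adjusted p = 0.785). The other DO chain gave -0.53 ± 0.25. These sums gave mean H2-Ob levels of 0.540 ± 0.127 CPM (SD, n = 5) in progressors and 0.777 ± 0.237 CPM (SD, n = 4) in nonprogressors, with overlapping ranges. Progressor ages after 6 weeks are not in the labels, and the groups were not matched by age.

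The change from 6 weeks was then compared between the groups. The difference of changes (progressors minus nonprogressors) was -0.06 ± 0.30 for Cd74, 0.11 ± 0.31 for H2-Ab1, 0.16 ± 0.32 for H2-Eb1 and 0.08 ± 0.26 for Ciita. None of the 10 genes passed, beside 0% of 21322 genes (edgeR, 0 at an unadjusted p under 0.05, 0 in DESeq2). The larger number of calls in progressors is therefore not shown to be a difference between the groups.

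The batches themselves differed. In nonprogressors of 6 and 14 weeks, H2-DMb1 was lower in batch 2 (-0.52 ± 0.16, adjusted p = 0.00939, edgeR) and the other 8 genes tested had estimates below 0 without passing. This was 1 of 9 genes called, beside 49.5% of 19748 genes. Median Cd74 at 6 weeks was 292 CPM in 4 mice of batch 1 and 202 CPM in 7 of batch 2. These nonprogressors differ between the batches, so batch and cohort cannot be told apart.

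Inside a group and time, the class II genes rose and fell together from biopsy to biopsy. After the mean of each group, time and batch was removed, the 4 genes H2-Aa, H2-Ab1, H2-Eb1 and Cd74 correlated with r of 0.956 to 0.978 over 120 libraries. Ciita correlated with these at 0.836 to 0.868. H2-DMa and H2-DMb1 correlated with each other at 0.887 and with Ciita at 0.604 and 0.575. Pairs that include H2-Eb2, H2-Oa or H2-Ob had a median r of 0.385, at raw counts where sampling noise is large. The points share mice and library runs, so these are descriptions. The residual SD on the log2 scale was 0.59 to 0.64 for the 4 core genes and 0.36 and 0.41 for H2-DMa and H2-DMb1, so the abundant chains varied more between biopsies than the editor.

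**Figure D4:**
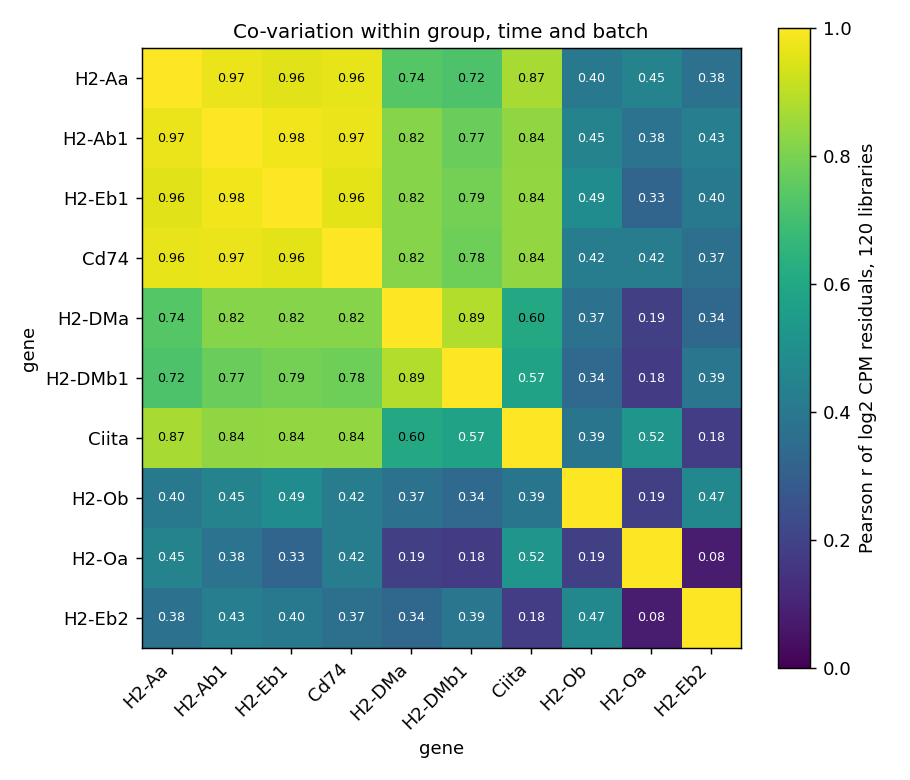
Pearson correlation between the log2 CPM of the genes over 120 libraries, after the mean of each group, time and batch was subtracted, with colour and number giving r. The 4 core genes form a block at 0.956 to 0.978, and H2-Ob, H2-Oa and H2-Eb2 stand apart.

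By the same measure, the 10 other genes most like the core were sought among 15905 genes with a mean of at least 1 CPM. They included Irf1 (r = 0.816), H2-DMb2 (0.777), Gbp2 (0.752), Il18bp (0.744), Psmb10 (0.742), Tapbpl (0.734), Gbp8 (0.733), Psmb8 (0.727) and Themis2 (0.694). IRF1 is a transcription factor of the interferon response, and Psmb8 and Psmb10 encode immunoproteasome subunits. With age in nonprogressors, Gbp2, an interferon-induced GTPase, fell by 0.69 (adjusted p = 0.00262, edgeR). Irf1 stood at -0.23 (adjusted p = 0.241). Of those named, only H2-DMb2 rose in nonprogressors (0.51, adjusted p = 0.0299) and in progressors (0.53, adjusted p = 0.00275).

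Cell type markers gave their own values. T cells are not among the cells named above as carrying class II. Against the core genes, r was 0.439 (Trac) to 0.689 (Cd3g) over the 7 T cell markers. It was -0.0307 (Mrc1) to 0.584 (C1qb) over the 9 macrophage markers and -0.0409 (Snx22) to 0.559 (Xcr1) over the 8 dendritic cell markers. Of the B cell markers, Cd79b had 0.538 and Pax5 0.104. H2-Ob, itself at low counts, had a higher r than the core with B cell genes that were also low: it was 0.641 with Cr2, 0.633 with Ms4a1 and 0.621 with Blk. From 6 weeks to the last 5 weeks in progressors, 6 of 8 B cell markers rose and none fell. In the same test 19.6% of all genes were called higher. Ms4a1 stood at 2.69 ± 0.67 and Cd79a at 1.93 ± 0.50. The summed B cell level was low: in batch 1 from 2.46 to 4.37 CPM at 6 weeks and from 1.54 to 20.4 CPM later, and in batch 2 from 1.96 to 4.25 and from 2.51 to 16.5 CPM. In nonprogressors 2 of 8 rose, Pax5 (1.73 ± 0.64) among them, beside 9.88% of all genes called higher.

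The conventional dendritic cell markers did not move as a list. In nonprogressors Batf3 rose (0.74 ± 0.17) while the growth factor receptor Flt3 (-0.68 ± 0.19) and Clec9a (-0.46 ± 0.17) fell, and in progressors Batf3 alone passed (0.91 ± 0.12). Of 9 macrophage markers, only Fcgr1 passed in either group, and it fell. Of 4 monocyte markers, Ly6c2, Plac8 and Ccr2 fell in both groups. The other, Chil3, rose in progressors (3.13 ± 0.64) and did not pass in nonprogressors. All 5 fibroblast markers fell in both groups. In progressors 4 of 7 T cell markers rose. Beside these counts, 9.88% of all genes were called higher and 14.2% lower in nonprogressors, and 19.6% higher and 19.9% lower in progressors. The part of these cells in the rise of class II was not tested.

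Of 27 other genes of the pathway, 25 were tested with age. In nonprogressors 5 rose and 2 fell, beside the 24.1% of all genes called there. Cd83, a surface protein that stabilises class II, rose by 0.35 ± 0.11, the protease Ctsl by 0.64 ± 0.21, the interferon regulatory factor Irf8 by 0.33 ± 0.10 and the Y box factor subunit Nfya by 0.26 ± 0.06, beside H2-DMb2, while Nfyc was among those that fell (-0.23 ± 0.08). In progressors 10 rose and 3 fell, beside the 39.5% of all genes called there. The rising ones included the proteases Ctss (0.48 ± 0.10), which trims the invariant chain, Ctsl (0.78 ± 0.18), Ctsb (0.32 ± 0.08), Ctsh (0.25 ± 0.09) and Lgmn (0.25 ± 0.08). Irf8 (0.46 ± 0.09), Cd83 (0.39 ± 0.10), Nfya, Ifngr1 and H2-DMb2 rose too, and Nfyb, Nfyc and Il10 fell. The X box factor subunits Rfx5, Rfxap and Rfxank passed in neither. Over the 5 ages of NOR 4 of 25 passed, Ctsl, Ctsh, Irf4 and Socs1, beside the 8.24% of all genes called there. In the strain comparison 0 of 26 passed.

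The 6 nonprogressor biopsies labelled by days after implantation held some of the highest class II levels of the series. Cd74 stood at 1158 and 1265 CPM on day 31, at 549 and 796 CPM on day 38, and at 1032 and 1064 CPM on day 108, beside at most 696 CPM in the 33 age-labelled nonprogressor libraries. H2-Ab1 stood at 213 and 246 CPM on day 31 and at 192 and 193 CPM on day 108, beside at most 122 CPM. H2-Ob, a chain of DO, stood at 4.41 and 5.33 CPM on day 108, beside at most 1.71 CPM in the age-labelled libraries and 1.38 CPM in NOR, while on day 31 it stood at 1.04 and 1.45 CPM. H2-Eb2 stood at 1.04 and 1.56 CPM on day 31 and at 2.22 and 2.30 CPM on day 108. The libraries of day 108 were thus above those of day 31 for H2-Ob and H2-Eb2 and below them for Cd74 and H2-Ab1, with 2 libraries a day and no test. Summed B cell markers stood at 54.0 and 56.6 CPM on day 108 and at 9.13 and 11.6 CPM on day 31. Summed T cell markers stood at 56.2 and 63.8 CPM on day 108, at 36.9 and 60.7 CPM on day 31 and at 39.7 and 43.8 CPM on day 38. The part of these cells in the class II levels was not tested, and the labels number these mice 1 and 2 on each day without saying whether they are the age-labelled mice 1 and 2.

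**Figure D5:**
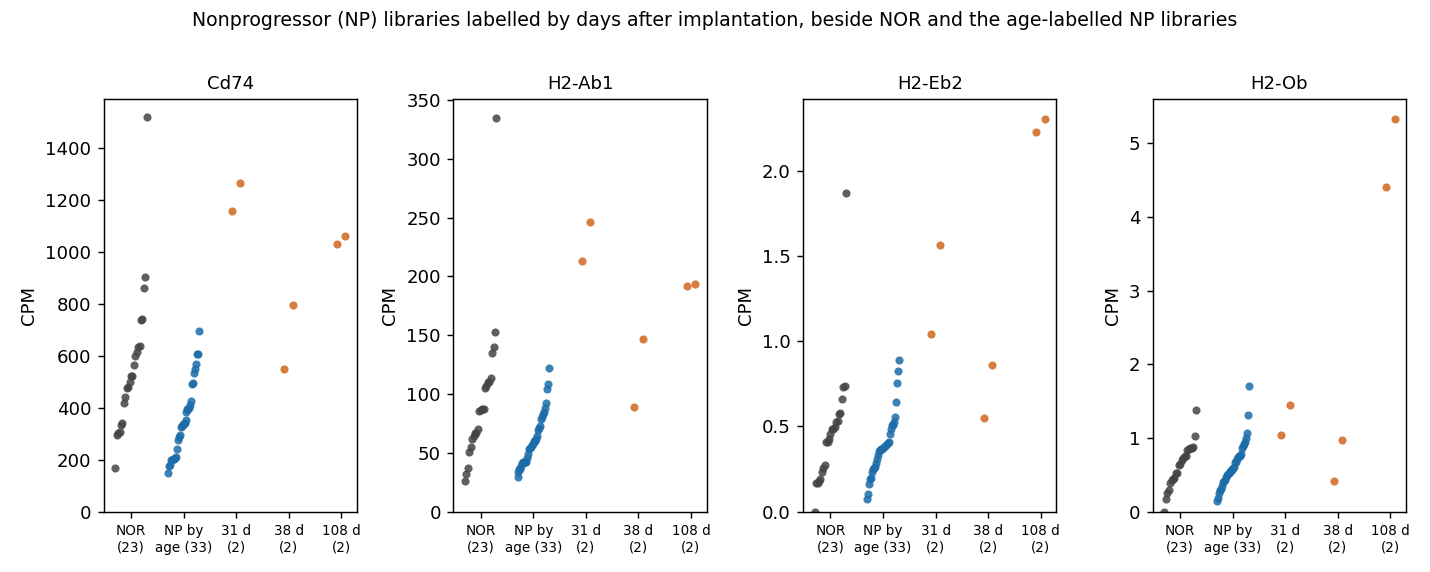
CPM of Cd74, H2-Ab1, H2-Eb2 and H2-Ob in single libraries of NOR (23), of nonprogressors labelled by age (33, NP by age) and of nonprogressors labelled by 31, 38 or 108 days after implantation (2 each). Points are libraries, sorted by value within NOR and NP by age, and each axis starts at 0. Cd74 on day 31 lies at 1158 and 1265 CPM, above every age-labelled nonprogressor library, and H2-Ob is highest on day 108 at 4.41 and 5.33 CPM.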

How the data were processed

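NOD and NOR mice carried polymer scaffolds whose biopsies gave ribosome-depleted total RNA. The deposited tables, 1 for each sequencing batch, hold expected counts per gene, which the authors made with RSEM, and the values were whole numbers. The submitters' processing notes name FastQC, MultiQC, cutadapt, STAR, RSEM and the build GRCm38, with no versions. Reads were thus aligned to a reference that does not carry the H2g7 haplotype, which may lower counts of its most variable genes, though NOD and NOR share it.

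Every sample's group and mouse came from its title, and all 120 columns were matched. Tables were joined on the 55487 shared genes. CPM used library sizes scaled by TMM over all samples. Tests used edgeR 4.0.16 (R 4.3.3), with filterByExpr, TMM, the quasi-likelihood test and Benjamini-Hochberg adjustment over all genes tested, at 0.05. Batch was a term where both batches entered. SE is the log2 fold change divided by the root of the F value. Alternatives were DESeq2 1.42.0, its size factors (RLE) in edgeR, no low-count filter, single batches, single mice of batch 1 left out (for the approach to onset every progressor, for the tests at 6 weeks of age and at 7 or from 5 weeks before onset none), and the mouse as a block. The lowest chi-square per degree of freedom among 239 replicate pairs was 11.0, so no library was counted as a repeat. The scripts were tested on simulated counts.

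Biopsies of 1 mouse are repeated samples of the same animal, which the titles number, so the mouse pairs them. Residuals were correlated over the most variable of the genes with a mean of at least 1 CPM. Biopsies of the same mouse had a mean r of 0.0165 in NOR, 0.0142 in nonprogressors and -0.0114 in progressors. Those of different mice had -0.00380, -0.00180 and 0.00308. The same was not measured for the class II genes alone. Correlations used log2(CPM + 0.1). The promoters and gene positions are from RefSeq (GRCm38.p6) and from GENCODE on GRCm38, where 99.4% of gene IDs matched. All 10 members are named always, the 10 genes most like the core by the rule given, and pathway genes where they passed, except for some results that are not reported here. The members, gene lists and tests were chosen with earlier results of these data known. The NOR age contrast, the strain by age contrast, the progressors left out in turn and the fits without the 22-week libraries were added after seeing the data.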

Additional observations from a re-analysis of the deposited data

Results flagged for a closer look

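In groups of 4 to 8 libraries of 1 group, time and batch, the highest or lowest value of a gene was compared with the rest. A gap beyond Dixon's critical value was met in 41 of 230 gene and group pairs. Chance gives about 1 in 20 where values are normally distributed, which untransformed CPM need not be, so the 2 rates are not directly comparable. Since these genes vary together, 1 library can raise many flags.

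Progressor 9 at 6 weeks stood above its group for 6 genes: Cd74 at 569 CPM, H2-Eb1 at 146, H2-Aa at 116, H2-Ab1 at 103, H2-DMa at 30.9 and Ciita at 19.9. Progressor 10 at 3 weeks before onset did so for Cd74 (1101 CPM), H2-Eb1 (217), H2-Ab1 (207), H2-Aa (195) and H2-DMa (38.1). Progressor 8 at 5 weeks before onset did so for Cd74 (714 CPM), H2-Eb1 (191), H2-Aa (170), H2-Ab1 (156) and H2-Ob (2.25). Progressor 4 at 7 weeks before onset did so for Cd74 (751 CPM), H2-Eb1 (179), H2-Aa (164), H2-Ab1 (149), Ciita (44.0), H2-DMa (32.1) and H2-DMb1 (14.0). Progressor 6 was high at onset for H2-Eb1 (279 CPM) and Ciita (58.2), at 1 week before onset for H2-DMa (28.1) and at 7 weeks before onset for H2-Eb2 (0.710). Progressor 1 was high 3 weeks before onset for H2-DMb1 (31.4 CPM).

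Nonprogressor 5 was high at 6 weeks for Cd74 (342 CPM), H2-Eb1 (81.0), H2-Aa (68.2), H2-Ab1 (64.0) and H2-DMa (23.7), and at 14 weeks for H2-Aa (128) and H2-DMb1 (14.7). At 6 weeks, nonprogressor 2 was low for H2-Eb1 (47.4 CPM) and H2-DMa (14.6), and nonprogressor 3 was high for H2-Oa (0.395). In NOR, H2-Eb2 was high in mouse 4 at 18 weeks (1.87 CPM) and in mouse 3 at 22 weeks (0.736), and low in mouse 4 at 6 weeks (0.258).

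The nonprogressor biopsies labelled by days after implantation entered no comparison. Both of their day 108 libraries lay above all 23 NOR libraries for H2-Ob (mean 4.87 CPM) and H2-Eb2 (mean 2.26 CPM).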

How the results depend on the processing

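The limits are few mice per group, repeated biopsies, batches that hold mostly different mice, and median counts of 8 to 21 for H2-Oa, H2-Eb2 and H2-Ob, where counting error is large. H2-Eb2 with age in nonprogressors turned to 0.0444 without a batch term and 0.0595 in batch 1 alone, H2-Oa in progressors to -0.0780 in batch 1 alone, and H2-Ob between strains to 0.0158 against nonprogressors alone. The cause was not tested. Genes of the set past the threshold for strain numbered 0 with each biopsy separate and 0 at 6 weeks alone, 0 to 6 with a mouse left out. For nonprogressor age they numbered 3 without the filter, 2 in batch 1 alone, and 1 to 5 with 1 of the 4 mice of batch 1 left out (those of batch 2 were not left out), and for progressors 1 in batch 1 alone, 4 in batch 2 alone and 5 to 8. With the mouse as a replicate block the counts for the set were 6 and 7, as without it, and no call on the set changed. Over all genes the block left 883 calls for 7 weeks before onset, 0 from 7 weeks onward, 28 from 5 weeks onward and 2 for age in NOR. The other all-gene counts that moved were, for strain, 403 at 6 weeks and 1439 against nonprogressors alone (1467 to 2219 with a mouse left out). For the 5 ages of NOR they were 3509 in DESeq2, 2601 without the 18-week library of mouse 5, and 481 to 1488 with a mouse left out. For nonprogressor age they were 9173 without a batch term, 2712 in batch 1 alone, and 2786 to 4845. For progressors they were 5317 in batch 1 alone and 7349 to 8242. For 7 weeks before onset there were 4077 in batch 2 alone, and onward from it 2157 without a batch term and 1352 in batch 2 alone. From 5 weeks onward there were 267 in DESeq2, 45 without the filter, 14 without a batch term and 2 in batch 2 alone. DESeq2 gave 61 between late progressors and nonprogressors, 2 for the difference of their changes and 2 for that between nonprogressors and NOR (0 to 2 with a mouse left out). The later ages of NOR gave 46 in DESeq2, 12 without the filter, 12 without the library of mouse 5, and 0 to 54. Of 536 values of single genes under alternatives, 428 kept direction and side of the threshold.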

Other observations

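Other cell type markers moved in the comparisons in which class II genes rose. Of all genes, 9.88% were called higher and 14.2% lower in nonprogressors, and 19.6% higher and 19.9% lower in progressors. From 6 weeks to the last 5 weeks in progressors, 3 of 4 plasma cell markers rose: the joining chain gene Jchain by 4.82 ± 0.80 on the log2 scale (adjusted p = 3.53e-06, edgeR), Mzb1 by 3.06 ± 0.80 and Sdc1 by 0.29 ± 0.09. In nonprogressors Jchain alone rose with age (2.59 ± 0.68, adjusted p = 0.00653). The endothelial genes Cdh5 (-0.65 ± 0.23) and Kdr (-0.62 ± 0.22) fell in progressors. Of 4 keratin genes of the epidermis, 3 fell with age in nonprogressors (Krt5, Krt10 at -3.75 and Krt1 at -4.83), while Krt14 rose in progressors (2.69 ± 1.09). Of 4 monocyte markers Chil3 rose in progressors (3.13 ± 0.64) and the other 3 fell. The part of any of these cells in the class II values was not tested.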
